A study of Drosophila melanogaster with 2 samples.

Results

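The miR-959 to miR-964 cluster is a run of 6 miRNA hairpins, dme-mir-959, dme-mir-960, dme-mir-961, dme-mir-962, dme-mir-963 and dme-mir-964, which were taken by name from the deposited miRNA tables. All 6 were listed in both libraries, among 235 hairpins in all. The libraries hold small RNA of 18 to 30 nt from dissected ovaries of Drosophila melanogaster females aged 3 to 5 days. One genotype, pelo1/+, has the pelo allele 1 over a wild-type copy and served as the control. In the other, peloPB60/1, the same allele 1 stands over the allele PB60, so allele 1 is common to both groups. Pelota, the product of pelo, rescues ribosomes that have stalled, and fly females need it for normal egg production. There was 1 library per genotype, so all values below compare 2 libraries, no p-value is given, and intervals are 95% counting intervals that leave out biological spread.

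miRNAs are cut from hairpin precursors and pair through a short seed with target mRNAs, which they repress. Hairpins of a genomic cluster are often cut from a shared primary transcript, after which each hairpin is processed and turned over by itself. The miR-959 to miR-964 cluster belongs to the fast-evolving miRNA clusters of Drosophila, which are best known from testis. In the adult head it is expressed in fat body, where its level cycles over the day and is linked to feeding time. Members have also been tied to the restraint of Toll immune signalling in flies. In the BDGP6 annotation the 6 hairpins lie next to each other on the plus strand of chromosome arm 2L, in the order of their numbers. All 6 are intronic to DIP-theta, a gene for a neuronal cell-surface protein that is read from the minus strand. The widest gap between neighbours lies between mir-962 and mir-963. Each hairpin has 2 annotated mature products, 1 from each arm, and the deposited counts give a single value per hairpin, so arms were not told apart.

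The miRNA tables held 1819781 reads in pelo1/+ and 1999224 reads in peloPB60/1. The ovary label was checked against the follicle cell hairpins miR-989, miR-318 and miR-994, which together took 26.9% and 45.9% of the miRNA reads, with none of the 3 below 13199 reads. They did not move together. Relative to the miRNA total, miR-989 was 2.55-fold higher in peloPB60/1 and miR-994 was 12.9-fold lower, with 155515 and 13199 reads. miR-318 changed little, with 16837 and 17818 reads. Most listed hairpins were rare. The median hairpin had 21.0 reads in pelo1/+ and 20.0 reads in peloPB60/1, and 150 and 161 of the 235 had under 50 reads. Marker hairpins of muscle, miR-1 and miR-133, went from 0.222% to 0.691% of the reads, almost entirely through miR-1, while miR-133 had 12 reads in each library. In whole ovaries, a change in the number of cells of a type cannot be told apart from a change in RNA per cell.

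The cluster was scarce in both ovaries. Its 6 hairpins held 556 reads in pelo1/+ and 721 reads in peloPB60/1. This is 306 reads per 1000000 miRNA reads (CPM, interval 281 to 332) and 361 CPM (interval 335 to 388), or 1 miRNA read in 3273 and 1 in 2773. As a share of all miRNA reads it was 0.0306% and 0.0361%. Every member nonetheless had more reads than the median hairpin of its library, from 1.70 times as many for miR-960 in peloPB60/1 to 22.1 times as many for miR-962 in the same library.

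In pelo1/+ the most abundant member was miR-963. It had 199 reads, which is 109 CPM (interval 94.7 to 126), and stood at place 59 of the 235 hairpins, between miR-284 with 208 reads and miR-13b-1 with 191. miR-962 followed with 117 reads, 64.3 CPM (interval 53.2 to 77.1). The step from miR-963 to miR-962 was 1.70-fold (interval 1.35 to 2.16), and that from miR-962 to the next member 1.62-fold (interval 1.20 to 2.21), so the order of the most abundant members was resolved beyond counting error. Below them lay miR-961 with 72 reads (39.6 CPM), miR-960 with 65 (35.7 CPM), miR-964 with 61 (33.5 CPM) and miR-959 with 42 (23.1 CPM). No neighbours among these 4 differed beyond counting error, and the widest step, miR-964 over miR-959, was 1.45-fold with an interval of 0.965 to 2.21. Members further apart in this order were not compared in this way, so the 4 are not shown to be equal. miR-959, the rarest, stood at place 91, between miR-4948 with 43 reads and miR-2501 with 39.

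In peloPB60/1 the order had a different head. miR-962 led with 443 reads, which is 222 CPM (interval 201 to 243), at place 50 of the 235, between miR-100 with 684 reads and miR-190 with 366. It exceeded the next member, miR-963, 6.33-fold (interval 4.91 to 8.26). miR-963 had 70 reads, 35.0 CPM (interval 27.3 to 44.2), and had moved to place 68. miR-961 and miR-964 each had 63 reads (31.5 CPM), miR-959 had 48 (24.0 CPM) and miR-960 had 34 (17.0 CPM). From miR-963 down to miR-960 no neighbours in this order differed beyond counting error. The ends of this run lay apart, with intervals of 27.3 to 44.2 CPM for miR-963 and 11.8 to 23.8 CPM for miR-960. miR-960 stood at place 85, just above miR-314 with 33 reads and just below 5 hairpins with 36 reads each, among them miR-10 and miR-124. For scale, miR-989, the leading ovary miRNA of this library, had 2002 reads for each read of miR-962 and 26079 for each read of miR-960.

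**Figure D1:**
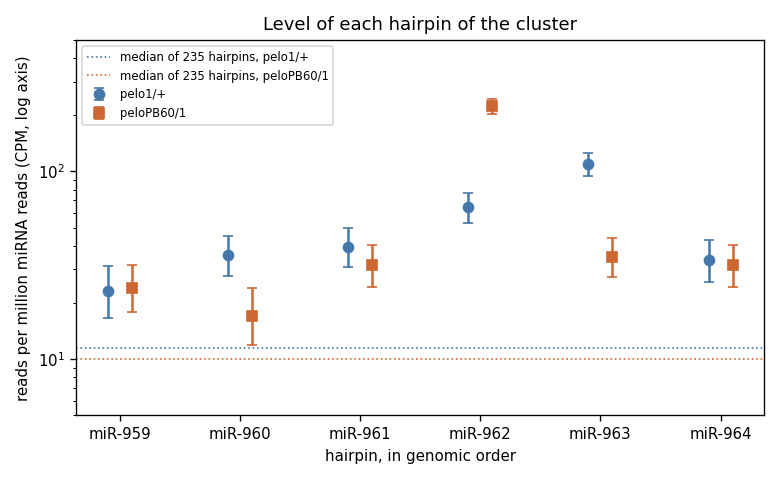
Level of each hairpin in CPM on a log axis, in genomic order, for pelo1/+ (circles) and peloPB60/1 (squares), with 95% Poisson intervals as bars and the median of 235 hairpins as dotted lines. miR-962 stands at 64.3 and 222 CPM and miR-963 at 109 and 35.0 CPM, while the intervals of miR-959, miR-961 and miR-964 overlap between the libraries.

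**Figure D2:**
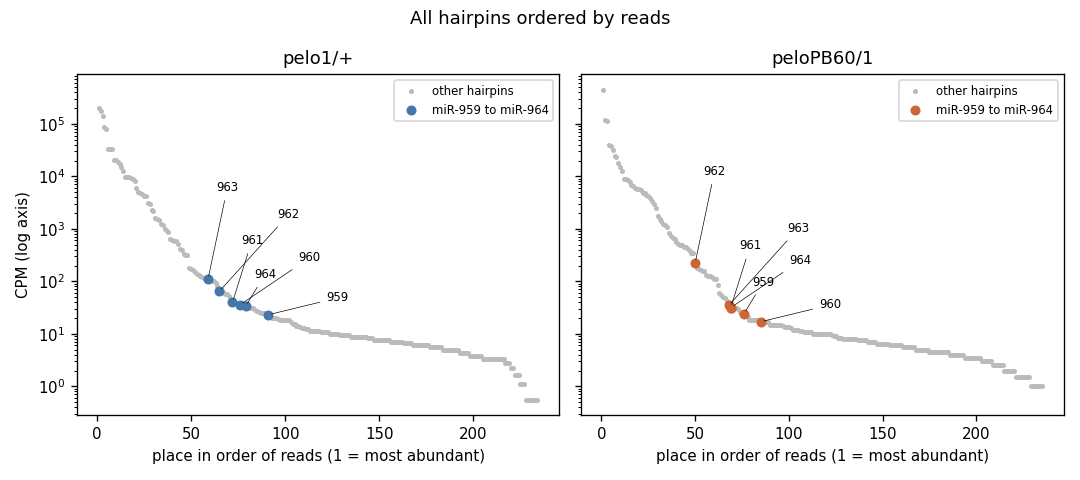
CPM of every listed hairpin on a log axis against its place in the order of reads, 1 panel per library, with the 6 cluster hairpins in colour. The members occupy places 59 to 91 in pelo1/+ and 50 to 85 in peloPB60/1, at the bend where the curve flattens toward the many hairpins with about 20 reads.

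Between the genotypes the members went different ways. miR-962 was 3.44-fold higher in peloPB60/1, with 117 against 443 reads, a log2 ratio of 1.78 and an interval of 1.49 to 2.09. miR-963 was 3.11-fold lower, with 199 against 70 reads and a log2 ratio of -1.64 (interval -2.06 to -1.24). miR-960 was 2.09-fold lower, with 65 against 34 reads and a log2 ratio of -1.06 (interval -1.71 to -0.45). These 3 passed the size rule, which asks for at least 50 summed reads, a difference of at least 2-fold and an interval without 0. Scaled to the miRNA total, 1 of 6 members was thus higher and 2 of 6 were lower. Over the 108 hairpins with at least 50 summed reads, 15.7% were higher, 31.5% were lower and 47.2% were called in either direction, close to the 3 of 6 members called in the cluster. Looser filters add rare hairpins to the table and lower that share, to 29.7% with at least 10 summed reads and 28.1% with at least 1, while a 1.5-fold rule raises it to 63.9%. Under each of these rules 1 member was higher and 2 were lower.

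The other members were not called. miR-959 had 42 and 48 reads and a log2 ratio of 0.05 (interval -0.57 to 0.69), which was -0.08 with upper quartile scaling. miR-964 had 61 and 63 reads and a log2 ratio of -0.09 (interval -0.62 to 0.44), and its sign turned in 5 of the 6 other scalings, up to 0.48 with miR-989 left out of the total. miR-961 had 72 and 63 reads and a log2 ratio of -0.33 (interval -0.84 to 0.18), which became 0.24 with miR-989 left out. Differences within these intervals, which span 0.673-fold to 1.61-fold for miR-959, 0.650-fold to 1.36-fold for miR-964 and 0.559-fold to 1.13-fold for miR-961, were not detectable at this depth.

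The calls of miR-962 and miR-963 held in all 7 scalings, with log2 ratios of 1.65 to 2.35 and of -1.77 to -1.07. That of miR-960 held with the miRNA total and with upper quartiles only. In the other 5 scalings its log2 ratio lay between -0.89 and -0.49, short of 2-fold, and at the last of these, with miR-989 left out of the total, the interval of -1.14 to 0.12 included no difference. The single hairpin miR-989 took 316447 reads of the pelo1/+ total and 886701 of the peloPB60/1 total. The median log2 ratio of the 108 tested hairpins was -0.34 with the miRNA total and shifted by -0.13 to 0.57 in the others. The split of 17 higher and 34 lower hairpins became 23 and 29 with the total of the miRNA and piRNA tables. It was 23 and 28 with TMM factors, with median-of-ratios factors or without the 10 most abundant hairpins, and 27 and 24 without miR-989. Upper quartiles moved it the other way, to 17 and 37.

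Place among the tested hairpins does not depend on scaling. Of the 108, 11 had a higher log2 ratio than miR-962, and 23 had a lower one than miR-963. miR-960 had 31 below it. The uncalled miR-959, miR-964 and miR-961 stood at places 40, 46 and 53 from the top. The median log2 ratio of the 6 members was -0.21, with 2 above 0 and 4 below, against -0.34 for the 108, whose quartiles were -1.26 and 0.39.

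**Figure D3:**
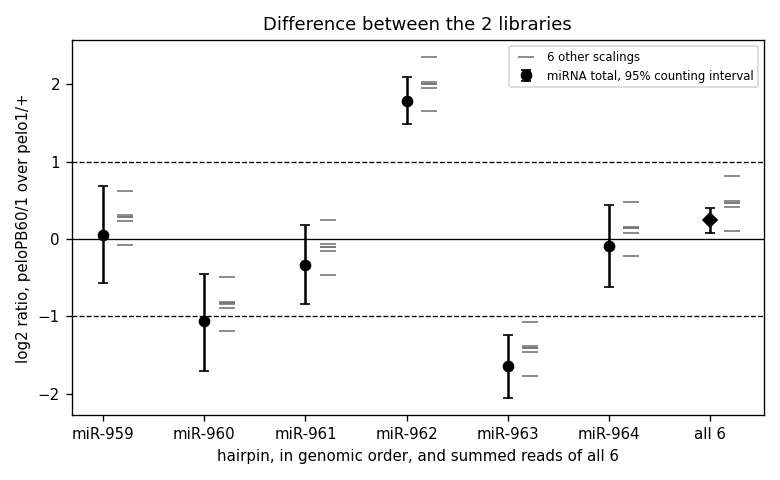
Log2 ratio of peloPB60/1 over pelo1/+ for each hairpin in genomic order and for the summed reads of all 6, with 95% counting intervals; short grey lines give the same value in 6 other scalings and dashed lines mark 2-fold. miR-962 (1.78) stays above the upper dashed line and miR-963 (-1.64) below the lower one in every scaling, whereas miR-960 (-1.06) crosses it.

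**Figure D4:**
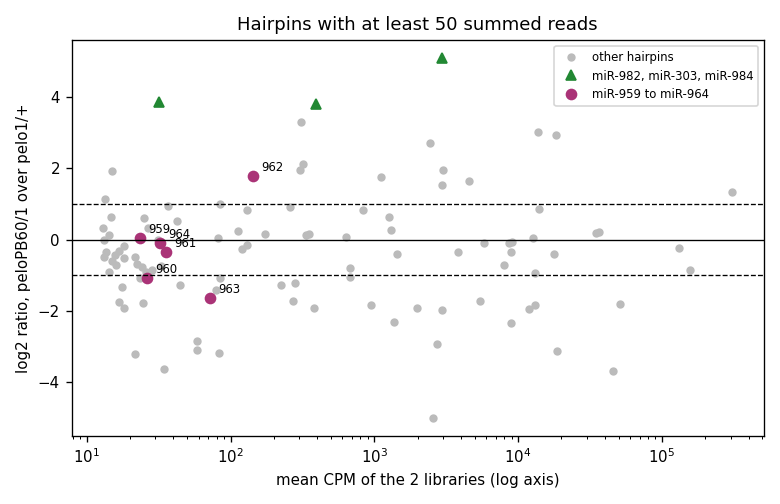
Log2 ratio of peloPB60/1 over pelo1/+ against the mean CPM of the libraries (log axis) for the 108 hairpins with at least 50 summed reads, with the cluster and the hairpins miR-982, miR-303 and miR-984 marked. Most of the cluster lies toward the rare end, and miR-962, at 64.3 and 222 CPM, lies furthest from it. The members' ratios run from -1.64 to 1.78 inside a table that spans -4.99 to 5.09.

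Summed over the 6 hairpins, the libraries differed by less than 2-fold in every scaling. The pooled log2 ratio was 0.24 (interval 0.08 to 0.40), a 1.18-fold higher level in peloPB60/1, and it ran from 0.11 to 0.81 over the 7 scalings. With upper quartiles its interval reached from -0.06 to 0.27. With the miRNA total, this direction turned when miR-962 was left out. Without this hairpin the other 5 had 439 and 278 reads and were 1.73-fold lower in peloPB60/1, with a log2 ratio of -0.79 (interval -1.02 to -0.57). Without miR-963 the pooled log2 ratio was 0.73 (interval 0.54 to 0.92). Leaving out both was decided after their values were seen. The remaining 4 had 240 and 208 reads and a log2 ratio of -0.34 (interval -0.62 to -0.07), equal to the median of all tested hairpins. These pools with members left out were scaled to the miRNA total only. In 5 of the 6 other scalings the median of all tested hairpins lay 0.17 to 0.57 higher. Whether the directions of the smaller pools hold in those scalings was not tested.

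The make-up of the cluster's reads needs no scaling, since a factor common to a library cancels. miR-962 supplied 21.0% of the cluster's reads in pelo1/+ (interval 17.7 to 24.7) and 61.4% in peloPB60/1 (interval 57.8 to 65.0). miR-963 went from 35.8% (interval 31.8 to 39.9) to 9.71% (interval 7.65 to 12.1). miR-960 went from 11.7% to 4.72%, miR-961 from 12.9% to 8.74%, miR-964 from 11.0% to 8.74% and miR-959 from 7.55% to 6.66%. A gain of 1 member lowers the shares of the rest, so the shares were also taken without miR-962. Among the other 5, miR-963 still went from 45.3% (interval 40.6 to 50.1) to 25.2% (interval 20.2 to 30.7). Among the 4 left without miR-963 as well, miR-960 went from 27.1% (interval 21.6 to 33.2) to 16.3% (interval 11.6 to 22.1), miR-959 from 17.5% to 23.1% and miR-964 from 25.4% to 30.3%, while miR-961 was at 30.0% and 30.3%.

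**Figure D5:**
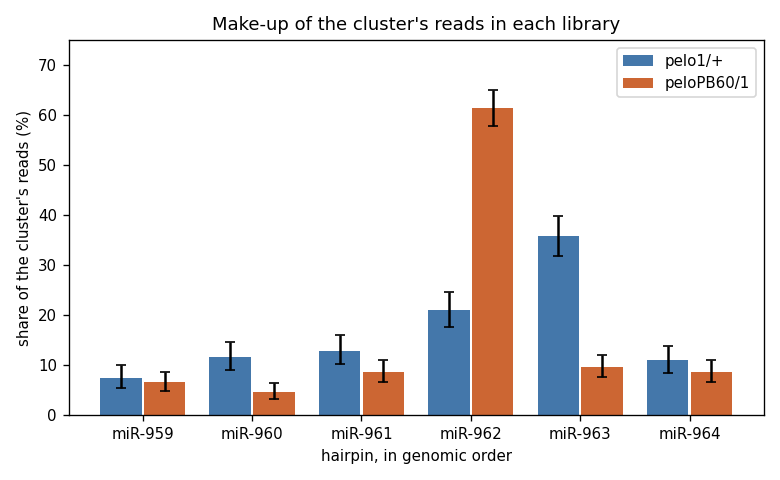
Share of the cluster's reads supplied by each hairpin in pelo1/+ (blue) and peloPB60/1 (orange), with exact 95% binomial intervals as bars. miR-962 takes 21.0% and 61.4%, and miR-963 takes 35.8% and 9.71%.

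All 15 pairs of members were compared by the ratio of their ratios, which is free of scaling. In 10 pairs the interval excluded an equal ratio, and in 8 it still did when widened for 15 comparisons. Pairs of hairpins outside the cluster were not counted in this way. The log2 ratios of the 108 tested hairpins were widely spread too (quartiles -1.26 and 0.39), so these counts do not set the cluster apart from other hairpins. All 5 pairs with miR-962 were among the 8, and in each of these 5 the whole 95% interval lay beyond 2-fold. The neighbours miR-962 and miR-963, on either side of the widest gap, differed most, by 10.8-fold (interval 7.56 to 15.4). miR-961 and miR-962, neighbours on the other side, differed by 4.33-fold (interval 2.86 to 6.54). miR-963 and miR-964, the last pair of the cluster, differed by 2.94-fold (interval 1.83 to 4.69). In contrast, the interval held an equal ratio for miR-959 and miR-961 (1.31-fold, 0.739 to 2.31), for miR-959 and miR-964 (1.11-fold, 0.620 to 1.98) and for miR-961 and miR-964 (1.18-fold, 0.704 to 1.98). miR-960 differed from miR-959 by 2.18-fold (interval 1.17 to 4.10) and from miR-964 by 1.97-fold (interval 1.11 to 3.53), neither of which held after widening. Its intervals with miR-961 and with miR-963 included an equal ratio.

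Set beside other fast-evolving clusters, the miR-959 to miR-964 cluster differed from one in level and from another in its change. The 8 hairpins miR-972 to miR-979, an X-linked cluster known from testis, had 2 to 12 reads each in pelo1/+ and 7 to 15 in peloPB60/1, below the median hairpin in every case. Per hairpin, the miR-959 to miR-964 cluster had 11.8 times as many reads in pelo1/+ (interval 9.06 to 15.5) and 12.0 times as many in peloPB60/1 (interval 9.53 to 15.3), or 5.56 times as many in peloPB60/1 without miR-962. The pooled change of the 2 clusters did not differ beyond counting error, with a ratio of ratios of 1.02 (interval 0.708 to 1.47). Without miR-962 the miR-959 to miR-964 cluster was lower relative to miR-972 to miR-979 by 2.01-fold (interval 1.37 to 2.93). The X-linked hairpins miR-982, miR-303 and miR-984 went from 409 to 13131 reads, and their pooled change exceeded that of the miR-959 to miR-964 cluster 24.8-fold (interval 21.3 to 28.8). miR-991 and miR-992, fast-evolving members of the miR-310 cluster, had 36 and 34 reads in pelo1/+ and 61 and 20 in peloPB60/1, and neither was called.

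Hairpins of other cell types were read beside miR-962. The muscle hairpin miR-1, at 2218 and 6899 CPM, was called higher, as were 17 of the 108 tested hairpins in all. miR-133 had 12 reads in each library. The pooled muscle list was 3.10-fold higher in peloPB60/1, through miR-1. The part of muscle in the result for miR-962 was not tested. Of 4 neuronal hairpins, miR-124 had 11 and 36 reads, miR-1000 21 and 22, miR-263b 14 and 20, and miR-190, the most abundant, 299 and 366. Of 4 hairpins tied to the female germline, miR-278 was 3.90-fold higher, bantam was 3.84-fold lower, and miR-184 and miR-7 had log2 ratios of 0.19 and 0.06. Their part in the values of the cluster was not tested either.

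The 5 hairpins outside the cluster that lay nearest to its mean level in both libraries were miR-966, miR-4973, miR-980, miR-1010 and miR-954, judged by the distance between log2 CPM values over 2 libraries. miR-966 was the nearest, at a distance of 0.523, with 63 and 100 reads. miR-4973 had 57 and 62 reads, miR-980 75 and 49, the mirtron miR-1010 114 and 52, and miR-954 45 and 97. Their log2 ratios ran from -1.26 for miR-1010 to 0.96 for miR-954, a range that their choice by level in both libraries limits.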

How the data were processed

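Illumina sequencing of ovary small RNA gave the reads, per the labels. The deposited tables hold raw counts of reads per hairpin, whole numbers without normalization, and list features with at least 1 count. The submitters' processing notes list Bowtie 0.12.7 and BDGP5 but not what each was used for. Not given in the sources used here are the miRNA reference, mismatches, strand, adapter trimming and how reads with several matches were counted. BDGP6 (Ensembl) served for gene order and host gene, and mature sequences were not used here.

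Samples were grouped by genotype label. CPM is the count over the total of the miRNA table, which is the depth of a read class. Log2 ratios had 0.5 counts added to each count. Intervals, at 95%, were exact: Poisson for levels, binomial (Clopper-Pearson) for shares, conditional for ratios and ratios of ratios (scipy 1.17.1). With 1 library per genotype, intervals cover counting error only. Reads carry no molecular identifiers, so copies made by amplification were not told apart and the intervals may be too narrow. A hairpin with at least 50 summed counts was called at 2-fold or more with an interval excluding 0. Scaling alternatives used the total of both tables (5229331 and 4872519 piRNA reads added), upper quartiles, TMM factors from edgeR 4.0.16, factors by the median of ratios from DESeq2 1.42.0, and totals without miR-989 or without the 10 most abundant hairpins. Neither tool was used for a test. Intervals and calls were tested on simulated Poisson counts. These follow the model that the intervals assume and hold no biological spread, so the check covers the calculation only.

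The members and lists were chosen with earlier results of these data known. Named hairpins outside the cluster are the 5 nearest in mean log2 CPM, those ranked next to its most and least abundant member, and list members. Sharing of seeds was part of the naming rule and was not analysed here. Of the 5 hairpins on the list of the miR-982 cluster, 3 were found, and miR-983-1 and miR-983-2 were listed in neither library. The comparisons of the cluster with other clusters, and of parts of it, were chosen after the data were seen.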

Additional observations from a re-analysis of the deposited data

How the results depend on the processing

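No paired analysis was possible because there was 1 library per genotype, and no library could be left out. The pooled log2 ratio of 0.24 was 0.41 with the total of both tables, 0.49 with TMM, 0.46 with median-of-ratios factors, 0.81 without miR-989 and 0.47 without the 10 most abundant hairpins, because each of these changes the relative totals of the libraries. With the miRNA total, leaving out miR-962 turned the pooled log2 ratio to -0.79 and leaving out miR-963 gave 0.73. Leaving out both, chosen after seeing the data, gave -0.34 with the same total. The pooled level in pelo1/+ was 269.8, 266, 241, 196 and 272 CPM without miR-960, miR-961, miR-962, miR-963 and miR-964, and in peloPB60/1 it was 329, 139, 326 and 329 CPM without miR-961, miR-962, miR-963 and miR-964. The number of lower members was 1 in those 5 scalings, in which miR-960 missed 2-fold, and 1 with at least 200 summed counts, where 2 members were tested. The other member tested at 200 counts was higher. In the whole table that filter left 68 hairpins, of which 14 were higher and 24 lower. A 4-fold rule called 0 members higher and 0 lower, against 8 and 11 in the whole table. Without miR-989, 27 hairpins were higher in the whole table. Filters of 10 and 1 summed counts, the 1.5-fold rule and upper quartiles left 1 higher and 2 lower members. The share of all tested hairpins called in either direction was 29.7% of 219 at 10 counts, 28.1% of 235 at 1 count and 63.9% of 108 at 1.5-fold. How the called members compare with all tested hairpins thus depends on the filter and the size rule. It depends on the scaling too, since 1 member was higher and 1 lower in the 5 scalings named. Adding 1 count in place of 0.5 changed no call of a member. Widening intervals over 15 pairs left 8 of 10. Members had 34 to 443 reads, so differences inside the intervals given could not be resolved at this depth.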
